A study of Drosophila melanogaster with 4 samples.

Results

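The pericentromeric ends of the chromosome arms 2L, 3L, 3R and X were examined for peaks of histone H3 monomethylated at lysine 4 (H3K4me1) in Drosophila melanogaster. A peak belonged to an end if its midpoint on FlyBase release 5 lay at or above 21500000 on 2L, 23000000 on 3L or 20900000 on X, or below 1500000 on 3R. By this rule 320 peaks lay in the ends, of 6063 on these 4 arms and 11173 in the whole list, with 67 on 2L, 31 on 3L, 137 on 3R and 85 on X. The ends thus held 5.28% of the peaks of the 4 arms. The other 5743 peaks of these arms served for comparison and are called the rest.

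The material was S2-DRSC, an established male cell line grown from late embryos, so all values come from 1 line with no treatment. Chromatin was fixed with formaldehyde, sheared and precipitated with a rabbit polyclonal antibody against H3K4me1 for 2 ChIP libraries, and 2 input libraries came from DNA that had not been precipitated. The deposited data were 1 list of peaks for the series, each with a start, an end and a score from the MACS peak caller. The list holds no value per library, so the spread between replicates is unknown, read depth was not analysed here and no difference below was tested. Spreads are over peaks, over stretches of an arm or over the 4 arms.

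H3K4me1 marks enhancers and the flanks of active promoters, where it is placed mainly by the Trithorax-related methyltransferase in flies. Around the centromeres the fly genome is packed as heterochromatin, which carries methylation of H3 at lysine 9, is bound by the protein HP1 and is rich in transposable elements and other repeats. The assembled arms run from gene-rich euchromatin into this repeat-rich sequence at their centromere side, and the separate Het scaffolds hold further heterochromatin of the same arms. Genes do lie in pericentromeric heterochromatin, and some are known to need that setting for normal expression. Reads from a repeated element can match many copies, and the sources used here do not say how such reads were placed.

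The ends were neither uniformly poor nor uniformly rich in peaks. Pooled over the arms, they held 53.6 peaks per Mb over 5965 kb, and 5.86% of their bases lay in peaks, against 62.6 peaks per Mb and 6.91% in the rest. The arms went different ways. The 3L end was the sparsest, with 21.2 peaks per Mb against 70.1 in the rest of 3L and 3.44% of its bases in peaks against 7.73%. The 2L end had 44.4 peaks per Mb against 55.7, and 3.66% covered against 5.91%. The 3R end had more peaks than the rest of 3R, 93.3 against 75.3 per Mb, with 9.23% covered against 8.27%. The X end also had more, 55.8 against 45.3 per Mb, with 7.13% covered against 5.34%. The lower pooled density rested on 3L. Without that arm the ends held 64.2 peaks per Mb and the rest 60.1.

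The density of an arm varied widely along its length, so each end was set beside consecutive windows of 1.5 Mb counted from its border outwards, 59 in all. Density in these windows ran from 10.7 to 147 peaks per Mb, with a median of 57.3 and an SD of 34.1. All 4 ends fell inside this range. On 3L, 14 of 15 windows were denser than the end, and on 2L 8 of 14. On 3R only 4 of 17 windows were denser than the end, and on X 3 of 13. Setting the ends against the 5 Mb next to them turned the pooled difference, with 53.6 peaks per Mb in the ends and 50.5 in the flanking stretches.

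**Figure D1:**
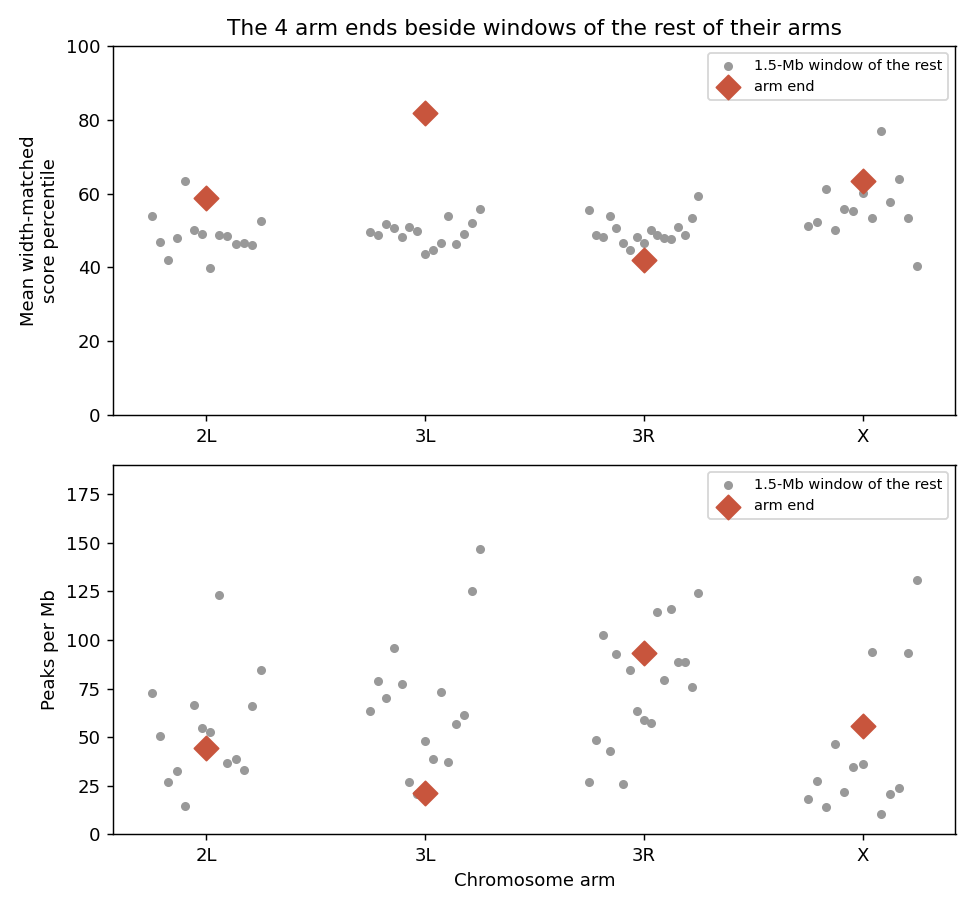
Each diamond is an arm end and each grey point a window of 1.5 Mb of the rest of the same arm, in order from the border outwards from left to right. The upper axis is the mean percentile of the score among peaks of like width and the lower axis the number of peaks per Mb. The 3L end has the highest mean percentile of its arm, 81.8, and the 3R end the lowest of its arm, 42.1, while all 4 ends lie within the range of density.

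Peaks of the ends were about as wide as those elsewhere and had a like median score, but their scores were more spread out. The median width was 555.5 bases in the ends, with quartiles of 320 and 1196 bases, and 592 bases in the rest, with quartiles of 335 and 1235. The median score was 18.56 in the ends and 17.89 in the rest. The upper quartile of the score was 49.7 in the ends against 35.6 in the rest, while the lower quartiles were 11.44 and 11.56. By arm, the median width was 426 bases in the 2L end against 549 in the rest, and 729 against 577 on 3L. It was 588 against 608 on 3R and 620 against 642 on X. The median score was 15.06 against 16.38 on 2L, 66.2 against 17.89 on 3L, 16.01 against 18.28 on 3R and 28.2 against 18.7 on X. The upper quartile of the score was lower in the 3R end, 32.7 against 36.1, and higher in the other ends. A score of 100 or more was held by 42 of the 320 end peaks, or 13.1%, where 7.04% of all peaks of the 4 arms had one. Of these 42, 20 lay on X, 12 on 3L, 6 on 3R and 4 on 2L. They were 23.5% of the end peaks of X, against 10.1% in the rest of X, and 38.7% against 5.83% on 3L. On 3R they were 4.38% against 5.73%, and on 2L 5.97% against 6.84%.

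Wide peaks score high in this list. Spearman's rho of score with width was 0.78 over the 320 end peaks and 0.82 over the rest, a description of peaks that share the same libraries. Scores were therefore ranked within 10 width classes of equal size over the 4 arms, which puts the mean of all peaks at percentile 50. The mean percentile was 55.1 ± 32.1 in the ends (SD, n = 320 peaks) and 49.7 ± 28.7 in the rest (SD, n = 5743 peaks). In the highest-scoring 25% of their width class were 116 of the 320 end peaks, or 36.25%, against a background of 25% over all peaks of the 4 arms (1513 of 6063). In the highest-scoring 10% were 61, or 19.1%, against a background of 10.0%. In the lowest 25% of their class were 83 end peaks, or 25.9%, against 24.8% of all peaks. This share differed by arm, with 2 of 31 peaks on 3L, or 6.45%, 9 of 67 on 2L, or 13.4%, 20 of 85 on X, or 23.5%, and 52 of 137 on 3R, or 38.0%.

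Pooled over the arms, the gap in rank was larger among the wider peaks. In the 4 narrowest classes, up to 464 bases, the ratio of the median scores of ends and rest ran from 0.99 to 1.03, and the gap in mean percentile from -1.65 to 5.21. In the 6 wider classes it ran from 1.10 to 1.39, and the mean percentile of the ends exceeded that of the rest by 4.33 to 12.9. Between 464 and 590 bases the median score was 19.9 for 29 end peaks and 15.6 for the rest, the class with the greatest gap in rank. Among the widest peaks, from 2585 bases, it was 121.6 for 41 end peaks and 88.1 for the rest. Pooled over the 6 wider classes, the mean percentile was 58.4 for 182 end peaks and 49.6 for the rest. For the 4 narrow classes it was 50.7 for 138 end peaks and 49.96 for the rest, a near equality in which the arms went opposite ways. In these classes the mean percentile was 79.8 for the 9 end peaks of 3L against 51.5 in the rest of the arm, 59.2 for the 35 of X against 49.8 and 55.4 for the 37 of 2L against 48.7. For the 57 of 3R it was 37.7 against 49.6. Among the 6 wider classes the ends of 3L, X and 2L also had the higher mean, 82.6 against 48.5, 66.1 against 51.8 and 63.3 against 47.8, and 3R the lower, 45.2 against 50.3.

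**Figure D2:**
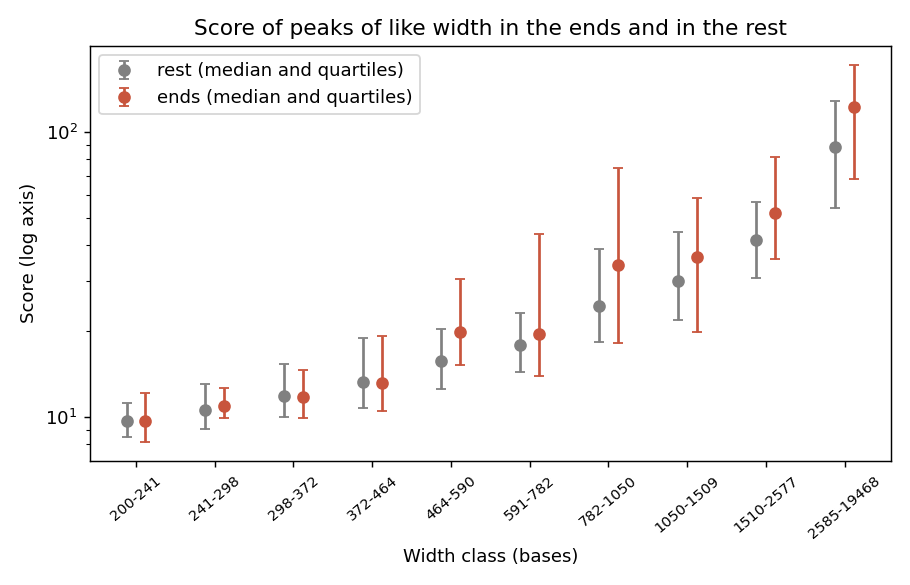
Median score (log axis) with its quartiles in 10 classes of peak width in bases, for the rest of the 4 arms in grey and the ends in red. The medians nearly coincide up to 464 bases, and in every wider class that of the ends is higher, with quartiles that overlap throughout.

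The 4 arms did not share this pattern, and the pooled rank hides it. Mean percentile in the 3L end was 81.8 against 49.7 in the rest of 3L, and 26 of its 31 peaks, or 83.9%, were in the highest 25% of their width class. In the X end it was 63.3 against 51.0, with 41 of 85 peaks, or 48.2%, in the highest 25%. The 2L end had 58.9 against 48.2, with 24 of 67 peaks, or 35.8%. The 3R end went the other way, with 42.1 against 50.1. Only 25 of its 137 peaks, or 18.2%, were in the highest 25%. Since 3R gives 42.8% of all end peaks, leaving it out moved the pooled gap in mean percentile from 5.38 to 15.3, and leaving out 3L moved it to 2.51. The SD of this gap over the 4 arms was 16.4, larger than the pooled gap.

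In mean percentile, the ends of 3L and 3R were the extremes against the windows of their own arms. The 15 windows of 3L had mean percentiles from 43.6 to 55.9, all below the 81.8 of the end. The 17 windows of 3R ran from 44.7 to 59.4, all above the 42.1 of the end. On 2L, 13 of 14 windows lay below the end and 1 above it, at 63.4. On X, 11 of 13 lay below the end, and the highest window, which held only 16 peaks, reached 77.0. The median score showed the same order for 3L, where the end had 66.2 and the windows 13.2 to 22.6. On X the end had 28.2 and the windows 15.1 to 36.0. The 2L end, at 15.06, went the other way, with 11 of 14 windows above it and 3 below. The 3R end, at 16.01, had 14 of 17 windows above it and 3 below. In the share of peaks in the highest 25% of their class, 2 of the 17 windows of 3R lay below the end.

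The 3L end held few peaks, and most of them were strong for their width. Its score quartiles were 28.2 and 155. The highest lay from 24334460 to 24337322, with 2863 bases and a score of 227.52. The widest ran from 24212033 to 24218475, with 6443 bases and a score of 156.52. The last peak before the centromere, from 24457747 to 24464113, had 6367 bases and a score of 205.47. Beside it, from 24456697 to 24457279, a peak of only 583 bases scored 153.5, and from 24432368 to 24433039 a peak of 672 bases scored 194.87, which ranked 3 among the 4156 peaks under 1000 bases on the 4 arms. The longest run of peaks less than 2000 bases apart held 5 peaks from 24381376 to 24386181, with scores from 19.32 to 74.2 and a mean percentile of 93.2, so peaks of modest score also ranked high there for their width. Between 23193307 and 23593031 no peak was called over 399725 bases, the longest such stretch of the 4 ends, and 5 of the 15 blocks of 100 kb held no peak base.

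The X end held the most peaks of very high score. It gave 6 of the 10 highest-scoring end peaks, 3L giving 3 and 3R 1. The highest of all ends lay from 21588135 to 21591395, with 3261 bases and a score of 264.16, and the widest of all ends from 21405517 to 21415995, with 10479 bases and a score of 245.74. Next came a peak of 2874 bases from 21955034 to 21957907 with 237.36 and one of 2918 bases from 22099380 to 22102297 with 232.77. The others on X were a peak of 6783 bases from 21594847 to 21601629 with 209.44 and one of 1283 bases from 22173354 to 22174636 with 198.01. Peaks were concentrated in the block from 21500001 to 21600000, where 22 peaks left 32.9% of the bases covered, the highest value of any block of the ends. This block held both longest runs of X, of 7 peaks each. One, from 21558337 to 21575726, covered 91.4% of 17390 bases, with scores between 69.01 and 126.04. The other, from 21519812 to 21526531, covered 45.5% of 6720 bases, with scores between 10.44 and 29.69. The 10 widest end peaks were split between X and 3L, with 4 each, and 2L and 3R, with 1 each. Those not yet given were on X from 22022349 to 22028597 with 6249 bases and a score of 184.12, and from 21966901 to 21971829 with 4929 bases and 137.38. On 3L they ran from 23818145 to 23824169 with 6025 bases and 163.54, and from 24235657 to 24240431 with 4775 bases and 161.78. Towards the centromere from the dense block of X, no peak was called from 21602654 to 21840113, over 237460 bases.

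The 2L end fell into a dense outer margin and a sparse inner part. Its best covered block was the one at the border, from 21500001 to 21600000, with 27 peaks and 13.2% of the bases covered. The median score there was low, 11.8, while the mean percentile at matched width was 56.4. The longest run of 2L lay in this block, 6 peaks from 21526921 to 21533975 with scores from 10.48 to 15.1. The mean percentile of the run was 54.9. The highest score was 179.01 for a peak of 4696 bases from 22201522 to 22206217, which lay with a peak of 223 bases beside it at the edge of a stretch of 266510 bases without a peak, from 22206520 to 22473029. The widest and last peak, from 23004636 to 23009508, had 4873 bases and a score of 164.55.

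The 3R end was the densest, with no block of 100 kb free of peaks. Its longest stretch without a peak, from 740499 to 828228, measured 87730 bases. Its most covered block was the first, where 16 peaks covered 28.1% of the bases from the first peak on. The peak nearest the centromere lay from 31883 to 32682, with 800 bases and a score of 99.13. Its longest runs held 8 peaks each. One, from 56739 to 70460, had a median score of 16.4 and a mean percentile of 27.1, and the other, from 96529 to 108957, a median score of 32.6 and a mean percentile of 52.5. Single peaks nevertheless stood high. The highest lay from 234250 to 237139, with 2890 bases and a score of 231.03, and the widest from 828229 to 833713, with 5485 bases and a score of 158.4.

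**Figure D3:**
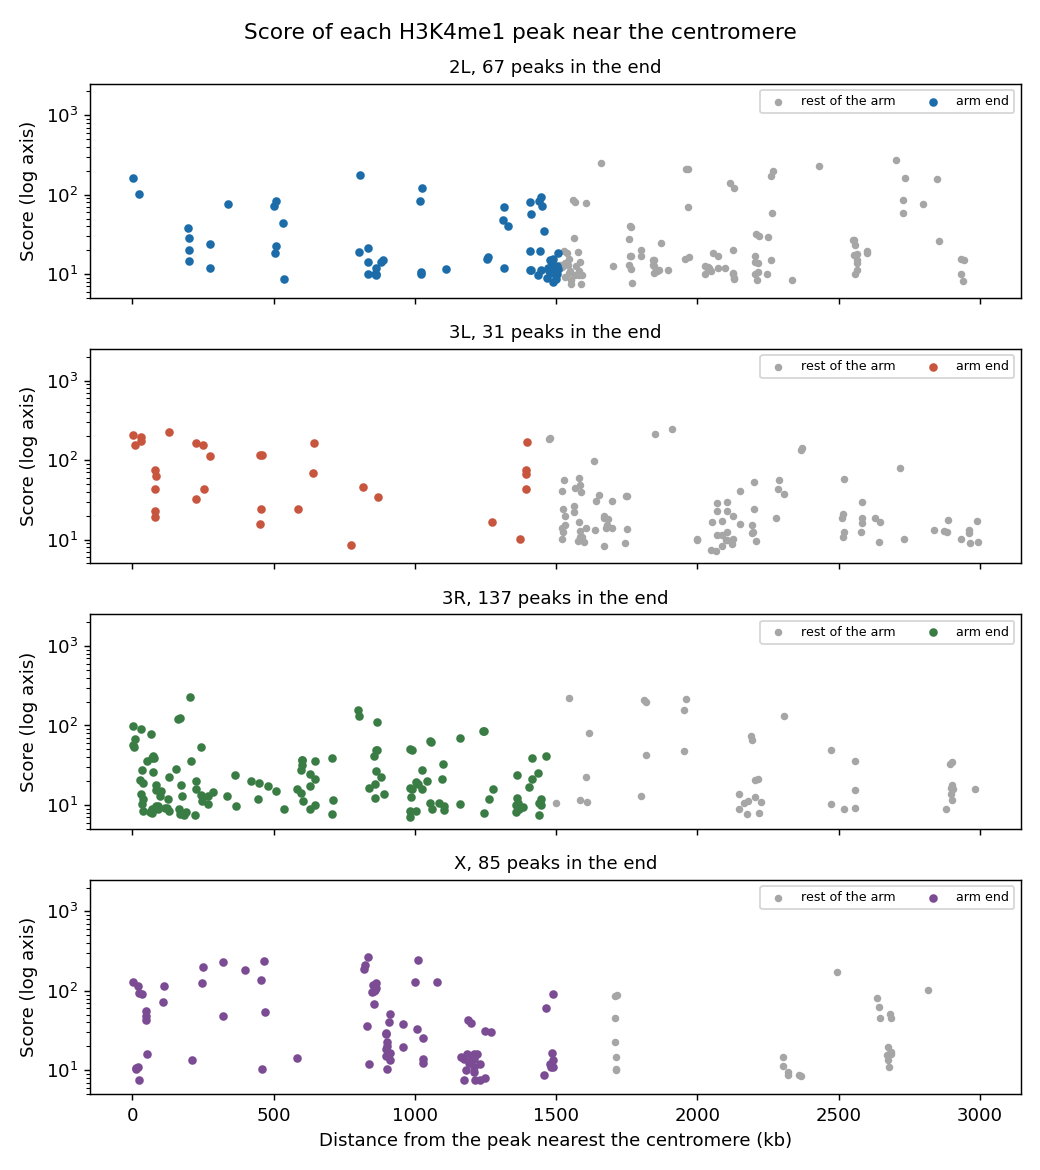
Score (log axis) of each peak against the distance of its midpoint in kb from the centromere-side edge of the peak nearest the centromere, for 2L, 3L, 3R and X, with end peaks coloured and the rest in grey. Among the 31 peaks of the 3L end the median score is 66.2, and among the 137 peaks of the 3R end the median is 16.01.

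Distance was measured from the outermost peak of each arm on the centromere side. On 2L, 3L and X the peaks within 500 kb had a higher mean rank for their width than those farther out in the end. The rank did not rise steadily towards the centromere on 3L and X. Within 500 kb, the mean percentile was 85.0 on 2L (n = 9 peaks), 86.1 on 3L (n = 19) and 72.3 on X (n = 24). Farther out in the same ends it was 54.9 (n = 58), 75.1 (n = 12) and 59.8 (n = 61). On 3R the values were 43.8 within 500 kb (n = 61) and 40.7 farther out (n = 76). In the first 250 kb, all 13 peaks of 3L and 5 of the 6 of 2L were in the highest 25% of their class, with 10 of 17 on X and 10 of 51 on 3R. On X the mean percentile was 68.4 for the 17 peaks of the first 250 kb and 81.6 for the 7 from 250 to 500 kb. It was 74.4 for the 25 peaks from 750 to 1000 kb and 49.0 for the 26 from 1000 to 1250 kb. On 3L it was 71.9 for the 6 peaks from 250 to 500 kb and 84.5 for the 3 from 500 to 750 kb. Several of these steps hold under 20 peaks, so the course within an end is coarse.

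Between the arms, coverage did not follow the rank in the first 250 kb. In the first 250 kb, 19.5% of the bases lay in peaks on 3R, 11.1% on 3L, 7.33% on X and 2.92% on 2L. From 250 to 500 kb coverage was 2.38% on 3R, 2.72% on 3L, 7.48% on X and 0.74% on 2L. Between these steps the mean percentile fell along with coverage on 2L, from 88.7 to 77.8, and on 3L, from 92.6 to 71.9. On X it rose from 68.4 to 81.6 with coverage nearly level. On 3R it rose from 43.1 to 47.4 while coverage fell. No peak was called on 3L from 1000 to 1250 kb, and 1 peak of 308 bases was called on X from 500 to 750 kb.

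**Figure D4:**
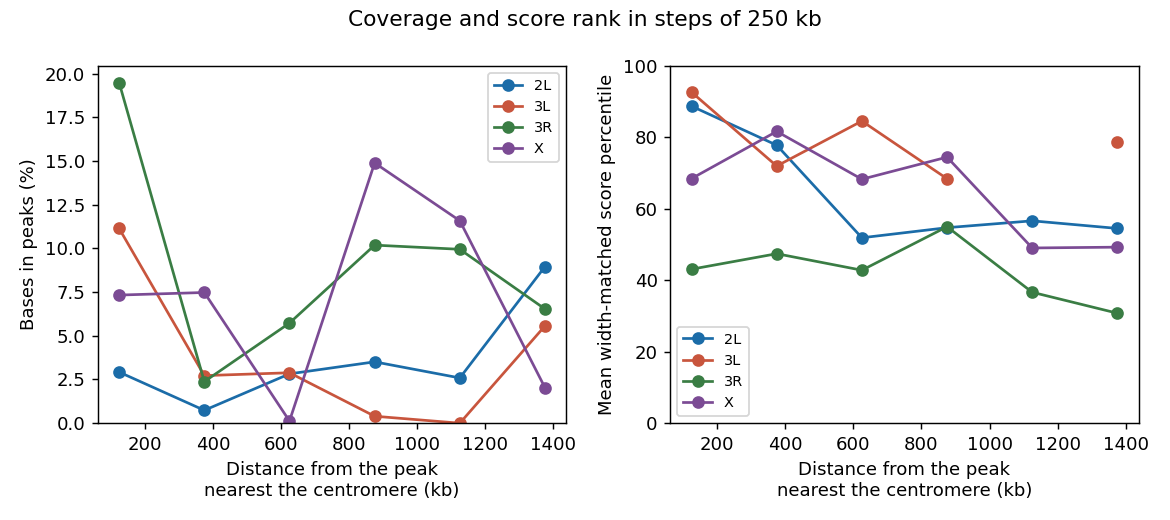
Share of bases in peaks in percent (left) and mean percentile of the score among peaks of like width (right) in steps of 250 kb from the peak nearest the centromere, for each arm. On 2L and 3L the rank is highest in the first step, at 88.7 and 92.6, whereas 3R stays between 30.8 and 54.9 over the 6 steps shown, up to 1500 kb; the missing point of 3L is a step with no peak.

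A small group of end peaks was narrow and yet scored high. Of the 228 end peaks under 1000 bases, 11, or 4.82%, scored 100 or more, where the background over all such peaks of the 4 arms was 1.59% (66 of 4156). This cut was chosen after the scores were seen. By arm they were 4 of 19 end peaks under 1000 bases on 3L, or 21.1%, and 3 of 59 on X, or 5.08%. On 3R they were 3 of 95, or 3.16%, and on 2L 1 of 55, or 1.82%, near the background. In the rest of each arm the share was 1.44% on 3L, 1.93% on X, 1.27% on 3R and 1.17% on 2L. Of these 11, 7 lay within 500 kb of the outermost peak, as did 113 of all 320 end peaks. Besides the 3L peaks given above, the 11 included a peak of 968 bases on X from 21601686 to 21602653 with a score of 187.12. The last peak of X was also among them, from 22422273 to 22422911, with 639 bases and 128.77. The narrowest, on 2L from 22985273 to 22985685, had 413 bases and a score of 102.58. The 3R end took part here, with peaks of 822 bases from 834050 to 834871 at 130.33, of 760 bases from 200208 to 200967 at 123.85 and of 783 bases from 898401 to 899183 at 109.84. Among the windows of the rest, the highest number of such peaks was 3.

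**Figure D5:**
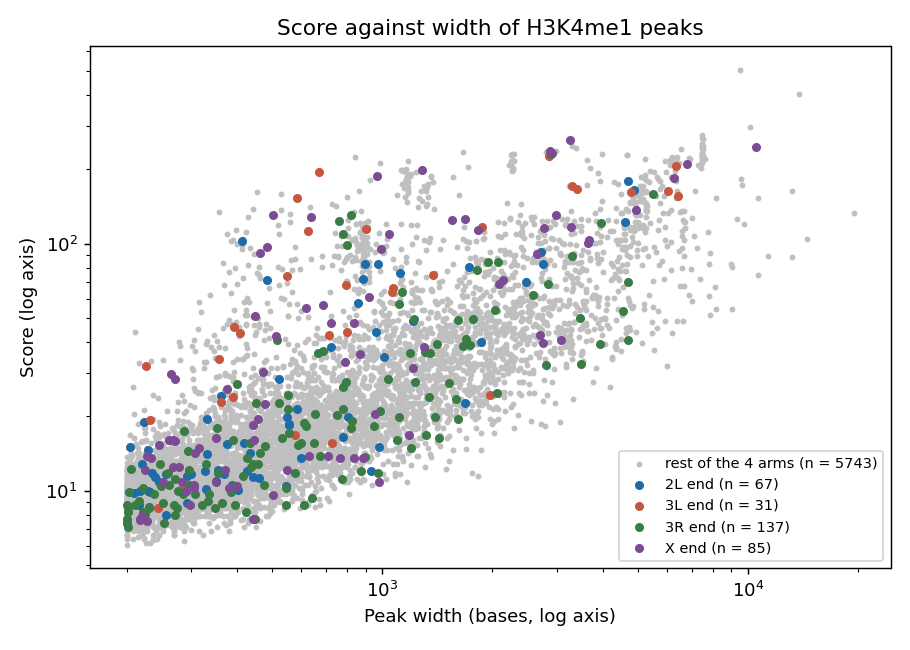
Score against width in bases, both on log axes, with the rest of the 4 arms in grey and the 4 ends in colour. Many end peaks of 3L and X lie along the upper edge of the cloud, many 3R peaks lie along its lower edge, and 11 end peaks are under 1000 bases with a score of 100 or more.

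Close neighbours were common in the ends as elsewhere. Less than 2000 bases separated 162 of 316 neighbouring pairs, or 51.3%, against 3253 of 5739, or 56.7%, in the rest. The share was lower in all 4 ends, 53.0% against 55.6% on 2L, 46.7% against 56.6% on 3L, 50.7% against 57.1% on 3R and 52.4% against 57.3% on X. Empty blocks of 100 kb were 9 of 60 in the ends, or 15.0%, and 200 of 917 in the rest, or 21.8%. The 3L end went against this pooled order, with 5 of 15 blocks empty, or 33.3%, against 15.2% in the rest of 3L. On 2L 2 of 15 were empty, or 13.3% against 23.3%, and on X 2 of 15, or 13.3% against 35.1%. On 3R it was 0 of 15 against 15.9%.

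No peak straddled a border. The first peak inside the 2L border, from 21502070 to 21502626, had a score of 18.42, and the last outside, from 21499019 to 21499541, one of 12.31. On 3L the scores were 167.1 inside, from 23065556 to 23068951, and 182.93 outside, from 22988779 to 22989942. On 3R they were 41.22 inside, from 1496515 to 1498211, and 10.57 outside, from 1529954 to 1530158. On X they were 91.39 inside, from 20932919 to 20933380, and 86.63 outside, from 20714752 to 20715329. High-scoring peaks on 3L and X were thus found on both sides of the border.

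The Het scaffolds of the same arms, 2LHet, 3LHet, 3RHet and XHet, hold heterochromatic sequence that is not joined to the arms and carried 163 peaks. Their scores were ranked in the width classes of the arms. The mean percentile was 79.5 ± 22.1 (SD, n = 163 peaks), and 113, or 69.3%, were in the highest 25%. On 3L the end and the scaffold had like values, 81.8 for the 31 end peaks and 78.5 for the 91 peaks of 3LHet. On 2L the values were 58.9 for the end and 70.3 for the 19 peaks of 2LHet. On 3R they lay far apart, 42.1 for the end and 84.0 for the 50 peaks of 3RHet, whose median score was 95.7 against 16.01. XHet held 3 peaks, with a mean percentile of 93.4. The inner 500 kb of 2L, at 85.0, exceeded its scaffold, while the inner 500 kb of 3R, at 43.8, lay below its own.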

How the data were processed

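H3K4me1 ChIP and input libraries of S2-DRSC cells (2 each) are labelled in the series, and the data used were the 1 deposited list of 11173 peaks. Per the file headers, coordinates are on FlyBase release 5 and peaks come from MACS. The submitters' processing notes name CASAVA (1.7.0.2 and 1.7.0.3), BWA, MACS2 and BDGP5, without roles. The authors deposited a score per peak, and the sources used here give neither its scale nor the threshold, nor how libraries and repeated reads were treated. Scores were therefore compared within the list, mostly by rank. Each peak's start and end are the other values the authors deposited. Starts were taken to count from 0, and printed positions count from 1.

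Width is end minus start. Density was taken from the border of an end to the outermost peak on that side. Percentiles are mid-ranks within 10 width classes of equal size over the 4 arms. Blocks of 100 kb with under 50 kb inside an end or the rest were left out. The ranking procedure was also run on scores shuffled within width classes, with and without a planted rise in all ends alike. That run checked the procedure only and tested no difference in these data. Analyses used Python 3.11.15, numpy 2.4.6, pandas 2.3.3 and matplotlib 3.10.9.

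Members and comparisons were chosen with earlier results of these data known. Peaks named are the highest, the widest, the outermost and those beside the border of each end, the 10 highest and 10 widest of all ends, and the longest run, longest gap and best covered block of each end. Others were chosen after their values were seen. Alternatives were other width classes, borders, flanks, weights, gaps, thresholds and arms left out. Genes and sequence at the peaks were not analysed here, since the gene table at hand is on Release 6.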

Additional observations from a re-analysis of the deposited data

How the results depend on the processing

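Assignment by any overlap could change nothing, since no peak straddles a border. Of the other 61 repeats under another setting, 51 kept their direction and moved by less than the SD over the 4 arms, which is wide, and 1, the median score with the border 250 kb farther from the centromere, gave a difference of 0. The gap in width-matched percentile kept its sign in the 14 repeats that could move it, from 2.51 to 15.3, with 11.96 on 2L and X alone, a setting chosen after seeing the data. The pooled differences in density, width and median score had no stable direction. Limiting the rest to 5 Mb beside the border gave 3.10 peaks per Mb and 0.48 percentage points of covered bases more in the ends, and leaving out 3L gave 4.13 peaks per Mb and 0.0104 points more. The median width of the ends differed from that of the rest by 2 bases without peaks under 300 bases, by 15 bases without 2L, and by -209 bases when peaks less than 500 bases apart were joined. The median score differed by -0.46 after joining and by -1.51 without 3L. The cause was not tested. Joining merges neighbours by construction. No paired analysis was possible because values of single libraries were not in the list used here, and no replicate could be left out.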

Other observations

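Peaks of like width recurred among the highest-scoring of the ends, a pattern chosen after the values were seen and not tested. The 4 end peaks between 2860 and 2920 bases wide had scores from 227.52 to 237.36. They are the peaks already given on 3L from 24334460 to 24337322, on 3R from 234250 to 237139 and on X from 21955034 to 21957907 and from 22099380 to 22102297. In the rest of the 4 arms, 15 peaks had a width in this range. One of them, with 2860 bases on X from 15308506 to 15311365, scored 222.23, and the other 14 scored between 27.55 and 116.38, with a median of 56.8. The width range was drawn around the high-scoring peaks, and the 222.23 peak lies at its lower edge. End peaks just outside the range scored lower, 68.51 for 2844 bases on 3R from 39137 to 41980 and 130.81 for 2981 bases on X from 21421077 to 21424057. The 5 high-scoring peaks lie on 3 arms, and their widths run from 2860 to 2918 bases.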
